A study of Mus musculus with 7 samples.

Results

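The 37 genes described here encode peroxisomal proteins of the mouse liver. They were chosen by name from a list of peroxisomal functions, with earlier results of these data known. Each was looked up by gene symbol in the count table of every mouse. Of the 51426 genes in these tables, 14754 had enough reads to be tested, and all 37 members were among them. The list has 24 enzyme and membrane genes and 13 peroxins, the Pex genes that build the organelle.

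Liver RNA was sequenced from male mice, all labelled C57BL/6J, on a high-fat diet (HFD). The diet began at an age of 8 weeks and lasted 16 weeks. The groups were 3 wild-type (WT) mice and 4 whole-body TET-1 knockout (TET1 KO) mice, and both groups had the same diet, so the comparison is of genotype within HFD feeding. TET1 is an enzyme that oxidizes methylated cytosine in DNA, and the study asked how its loss alters fatty liver disease. Whole-body knockout was made both with the strain B6;129S4-Tet1tm1.1Jae/J and from floxed Tet1 with a beta-actin Cre, and the labels of the sequenced livers do not say which was used. The study writes their genotype in the notation it uses for the former, not for the Cre cross. The deletion was in every tissue and not in hepatocytes alone, and the labelled background was not checked here.

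Peroxisomes are small organelles that hepatocytes hold in large numbers. They shorten very long and branched fatty acids and bile acid precursors, and remove the carboxyl carbon of phytanic acid. They also begin the synthesis of ether lipids, detoxify glyoxylate and break down the hydrogen peroxide made by their own oxidases. They have no DNA, so their matrix enzymes are made in the cytosol, bound by the receptors PEX5 or PEX7, and passed across the membrane at a docking complex that holds PEX13 and PEX14. PEX3, PEX16 and PEX19 place proteins in the membrane, and PEX11 proteins take part in elongation and division. In rodent liver, many of the enzyme genes are targets of the nuclear receptor PPARA.

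Libraries held between 15005277 and 22746138 counts, and the lowest count of any member in any library was 50. CPM, the count scaled to library size, was further scaled by the TMM method, which corrects for library composition, so that 1 CPM stood for 14.2 to 24.1 counts. Tet1 itself was counted 1, 4 and 1 times in WT and 2, 1, 4 and 1 times in TET1 KO, which is too few to check the genotype labels. Over all tested genes, edgeR's quasi-likelihood test called 298, or 2.02% of those tested, when a call needs an adjusted p under 0.05 (Benjamini-Hochberg), with 169 lower (1.15%) and 129 higher (0.874%) in TET1 KO livers. That number was 38 without WT replicate 2, 187 without TET1 KO replicate 1, 104 without TET1 KO replicate 2, 79 without TET1 KO replicate 3 and 891 without TET1 KO replicate 4. With scaling by library size alone, the higher genes were 107 of 419 calls (25.5%) instead of 43.3%. The labels name each mouse as a separate sample, and no pair of libraries of 1 genotype agreed within sampling noise.

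None of the 37 peroxisomal genes passed the test, with 0 called lower and 0 called higher by edgeR and adjusted p-values from 0.0618 to 0.971. DESeq2, an alternative test, called 8 of the 37 (21.6%) against a background of 9.14% of its tested genes, namely Ehhadh, Hacl1, Hsd17b4, Lonp2, Pex13, Pex19 and Scp2 lower and Agxt higher. Before adjustment, edgeR gave p under 0.05 for 16 members (43.2%) against 26.3% of all tested genes. Of these 16, 15 were lower in TET1 KO livers (40.5% of members, against 12.7% of all genes), and Agxt alone was higher. These shares describe a list chosen with earlier results of these data known, and they were not tested. They changed with 1 mouse: 7 members instead of 16 had p under 0.05 without WT replicate 2. In that fit, edgeR's calls over all tested genes also fell, from 298 to 38.

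The log2 fold change of TET1 KO over WT was below 0 in 25 of the 37 members (67.6%) and in 48.9% of all tested genes. Its median was -0.24 over the members and 0.01 over all tested genes. In 12 members (32.4%) the TET1 KO livers were all lower than the WT livers, as they were for 10.8% of all tested genes. The reverse arrangement was found in 1 member (2.70%), Pxmp4, and in 11.7% of all tested genes. With single mice left out it held for 1 to 4 members, while the share of all tested genes ranged from 13.4% to 20.5%. It was 4 members without WT replicate 3 (16.2% of all genes) or TET1 KO replicate 1 (13.96%), 3 without WT replicate 1 (20.5%) or TET1 KO replicate 2 (14.5%) and 2 without TET1 KO replicate 4 (18.4%). The 95% interval of the log2 fold change stayed between -1 and 1, a 2-fold change either way, in 30 of the 37 members. It reached past that size for Hacl1, Ehhadh, Lonp2, Hsd17b4, Scp2, Agxt and Pex3, for which larger differences were not resolved at this number of mice. RNA from bulk liver gives no cell count, so fewer cells of a type and less RNA per cell cannot be told apart.

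**Figure D1:**
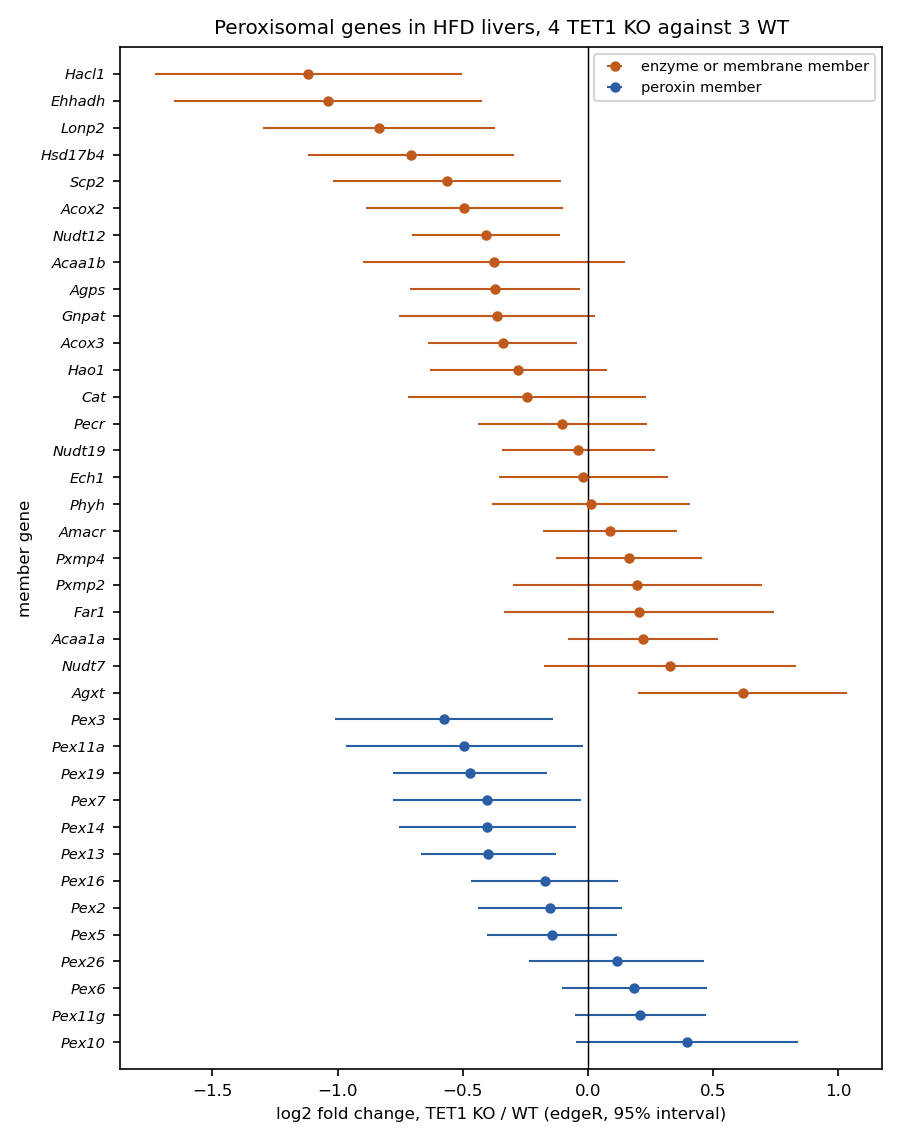
Log2 fold change of TET1 KO over WT (x axis) for each of the 37 members (y axis), with points for the edgeR estimate and bars for its 95% interval, over 4 TET1 KO and 3 WT livers. Enzyme and membrane genes run from -1.12 for Hacl1 to 0.62 for Agxt and peroxins from -0.57 for Pex3 to 0.39 for Pex10, and no member passed the adjusted threshold.

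Enzyme and membrane genes had a median log2 fold change of -0.26 and peroxins one of -0.17. Without WT replicate 3 this order turned, at -0.25 for enzyme and membrane genes and -0.27 for peroxins. The SD of the log2 fold change was 0.43 in the 24 enzyme and membrane genes, 0.31 in the 13 peroxins and 0.55 in all tested genes. The median absolute log2 fold change had the reverse order, at 0.33 in the enzyme and membrane genes and 0.39 in the peroxins. Of the enzyme and membrane genes, 16 were below 0, 10 (41.7%) had an unadjusted p under 0.05 and 9 (37.5%) were lower without overlap between genotypes. Of the peroxins, 9 were below 0, 6 (46.2%) had an unadjusted p under 0.05 and 3 (23.1%) were lower without overlap. DESeq2 called 6 enzyme genes (25%) and 2 peroxins (15.4%). Over all tested genes these shares were 26.3% for the unadjusted p, 10.8% for lower without overlap and 9.14% for DESeq2, with 48.9% below 0. The difference between the medians of the classes was not tested.

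Genes of alpha-oxidation held the lowest ratio of the list. Hacl1, the 2-hydroxyacyl-CoA lyase that cleaves the phytanic acid product (ENSMUSG00000021884, chr14:31607226-31640965 of GRCm38), stood at 124, 184 and 147 CPM in WT livers and at 35.0, 75.2, 71.0 and 98.4 CPM in TET1 KO livers. All TET1 KO livers lay below all WT livers, with TET1 KO replicate 1 lowest. The log2 fold change was -1.12 (adjusted p = 0.0618, standard error 0.28), a ratio of 0.461. The adjusted p ranged from 0.0030 to 0.275 over 14 alternatives (another test, other scalings and filters, or 1 mouse left out). It was 0.0432 without TET1 KO replicate 1, with a log2 fold change of -0.89, 0.0277 without TET1 KO replicate 4 and 0.275 without WT replicate 2. Phyh, the phytanoyl-CoA hydroxylase of the step before, showed no such difference, with a log2 fold change of 0.01 (95% interval -0.38 to 0.41). Hacl1 shares 108 of its 5123 exon bases with Btd, which lies on the opposite strand at a mean of 54.1 CPM, so some of its reads could belong to Btd if strand was not used in counting.

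The bases just upstream of the transcription start are shown for Hacl1 and Ehhadh, the members with the lowest ratios, for Agxt, the member with the highest, and for Pex13, a peroxin whose genotypes did not overlap. Each run has the 150 bases before the start on the gene's own strand, from RefSeq on GRCm38.p6, and every CpG dinucleotide, the sequence in which TET1's substrate mostly occurs, is in capitals.
Hacl1 (chr14:31640966-31641115, minus strand, 9 CpG): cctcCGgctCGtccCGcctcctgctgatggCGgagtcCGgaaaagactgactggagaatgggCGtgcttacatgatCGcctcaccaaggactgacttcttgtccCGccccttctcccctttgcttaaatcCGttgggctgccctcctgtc
Ehhadh (chr16:21787835-21787984, minus strand, 9 CpG): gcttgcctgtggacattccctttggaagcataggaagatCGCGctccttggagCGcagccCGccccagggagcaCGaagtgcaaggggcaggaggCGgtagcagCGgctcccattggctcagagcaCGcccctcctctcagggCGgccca
Agxt (chr1:93135090-93135239, plus strand, 0 CpG): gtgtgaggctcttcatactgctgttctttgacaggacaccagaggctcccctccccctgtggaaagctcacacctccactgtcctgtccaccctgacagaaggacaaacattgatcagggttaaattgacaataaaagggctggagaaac
Pex13 (chr11:23665884-23666033, minus strand, 11 CpG): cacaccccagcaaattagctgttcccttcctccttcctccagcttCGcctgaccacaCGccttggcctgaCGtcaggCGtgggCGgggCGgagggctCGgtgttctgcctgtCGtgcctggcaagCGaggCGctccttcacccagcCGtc

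Promoters were matched for 31 of the 37 members, and Nudt12, Pex2, Pex19, Hsd17b4, Amacr and Pxmp2 had no entry. In windows of 250 bases before to 50 bases after the start, the observed over expected CpG ratio had a median of 0.53 in the 23 promoters of enzyme and membrane genes, 0.80 in the 14 promoters of peroxins and 0.38 in all 32851 promoters. A ratio of at least 0.6 was found in 47.8%, 78.6% and 35.8% of them, respectively. Low CpG ratios occurred in members lower in TET1 KO, such as Acox2 (0.09 and 0.16), and in the higher Agxt (0.14). High CpG ratios occurred likewise in the lower Hacl1 (0.68) and the higher Pex10 (0.91). The runs printed above do not stand for the list, and no relation of CpG to fold change was tested. These are descriptions of the sequence, and DNA methylation was not part of these files.

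PPARA binds a direct repeat of AGGTCA with a 1-base spacer. This pattern, AGGTCANAGGTCA, was searched on both strands with at most 2 mismatches. It was found in 2 of 37 member promoters (5.41%), those of Cat and Acox2, and in 3.86% of all promoters. The Acox2 match lies after the start, at bases 9 to 21, and the other promoter entry of Acox2 had none. The Cat match lies 204 bases before the start, and the pattern is in capitals with 12 bases on either side (chr2:103485333-103485369 of GRCm38.p6, minus strand).
Cat: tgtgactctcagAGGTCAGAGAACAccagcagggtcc
A match of letters is a description of this window and not a binding site.

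Beta-oxidation was the largest group, with 10 members, a median log2 fold change of -0.36 and 8 members below 0. In 5 of them, Ehhadh, Hsd17b4, Scp2, Acox2 and Acox3, the TET1 KO livers were all lower, an arrangement found in 10.8% of all tested genes. Ehhadh, the L-bifunctional enzyme that hydrates and oxidizes enoyl-CoA (ENSMUSG00000022853, chr16:21761285-21787834), stood at 214, 347 and 176 CPM in WT livers and at 66.9, 132, 133 and 146 CPM in TET1 KO livers. The lowest WT liver was above the highest TET1 KO liver by less than the WT livers differed among themselves. Its log2 fold change was -1.04 (adjusted p = 0.0713, standard error 0.28). Without WT replicate 2, the highest liver, it was -0.71 with an adjusted p of 0.321, the top of a range from 0.0067 over the same alternatives, and without TET1 KO replicate 4 the adjusted p was 0.0499.

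Hsd17b4, the D-bifunctional enzyme of the same steps for branched and very long chains (ENSMUSG00000024507), stood at 425, 558 and 387 CPM in WT livers and at 212, 269, 312 and 326 CPM in TET1 KO livers. WT replicate 2 was again highest and TET1 KO replicate 1 lowest. The log2 fold change was -0.71 (adjusted p = 0.0690, standard error 0.19). Both bifunctional enzymes thus had ratios below 1, 0.487 for Ehhadh and 0.613 for Hsd17b4, and neither passed edgeR's adjusted threshold, while DESeq2 gave adjusted p-values of 0.0067 and 0.0079. For Hsd17b4 the adjusted p reached 0.291 without WT replicate 2 and was 0.0486 without TET1 KO replicate 4. Scp2, whose gene gives both a sterol carrier protein and a thiolase for branched chains (ENSMUSG00000028603, chr4:108043830-108144971), was the most abundant member in CPM, at 2805, 3437 and 3038 in WT livers and 1796, 2113, 2368 and 2097 in TET1 KO livers. The genotypes did not overlap, and the log2 fold change was -0.56 (adjusted p = 0.126, standard error 0.21).

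The oxidases that open the cycle for branched substrates did not overlap between genotypes. Acox2, the oxidase of bile acid intermediates, stood between 140 and 182 CPM in WT livers and between 84.0 and 139.1 CPM in TET1 KO livers (log2 fold change -0.49, adjusted p = 0.122). Acox3, the pristanoyl-CoA oxidase, stood between 22.6 and 29.5 CPM in WT livers and between 19.8 and 22.2 CPM in TET1 KO livers (log2 fold change -0.34, adjusted p = 0.145). For both genes the nearest livers of the genotypes differed by less than 1 CPM.

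The thiolases that close the cycle, Acaa1a and Acaa1b, are close paralogs between which reads could have been split, and their ratios had opposite signs. Acaa1a (ENSMUSG00000036138, chr9:119341028-119350296) stood at 259, 237 and 241 CPM in WT livers and at 244, 311, 290 and 300 CPM in TET1 KO livers (log2 fold change 0.22, standard error 0.14, adjusted p = 0.318). Acaa1b (ENSMUSG00000010651, chr9:119148043-119157093) stood at 1972, 1971 and 1139 CPM in WT livers and at 1613, 1128, 1254 and 1228 CPM in TET1 KO livers (log2 fold change -0.38, standard error 0.24, adjusted p = 0.326). The genotypes overlapped for both, since TET1 KO replicate 1 was near the WT livers for Acaa1a and WT replicate 3 was among the TET1 KO livers for Acaa1b. Their sum, which does not depend on how reads were split, was 2231, 2208 and 1380 CPM in WT livers and 1857, 1438, 1543 and 1528 CPM in TET1 KO livers, again with overlap.

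The remaining genes of the group lay near 0. Pecr, a trans-enoyl-CoA reductase, had a log2 fold change of -0.10, Ech1, a dienoyl-CoA isomerase also found in mitochondria, one of -0.02, and Amacr, the racemase that prepares branched chains for oxidation, one of 0.09. Their 95% intervals ran from -0.44 to 0.35.

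Lonp2, the protease that cuts and clears proteins of the matrix (ENSMUSG00000047866, chr8:86624043-86716636), had the second smallest p of the list. It stood at 336, 425 and 341 CPM in WT livers and at 129, 214, 251 and 229 CPM in TET1 KO livers, with no overlap. The log2 fold change was -0.83 (adjusted p = 0.0635, standard error 0.21), a ratio of 0.561. It was -0.66 without TET1 KO replicate 1, with an adjusted p of 0.0560, and over the alternatives the adjusted p ranged from 0.0048 to 0.272, highest without WT replicate 2.

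**Figure D2:**
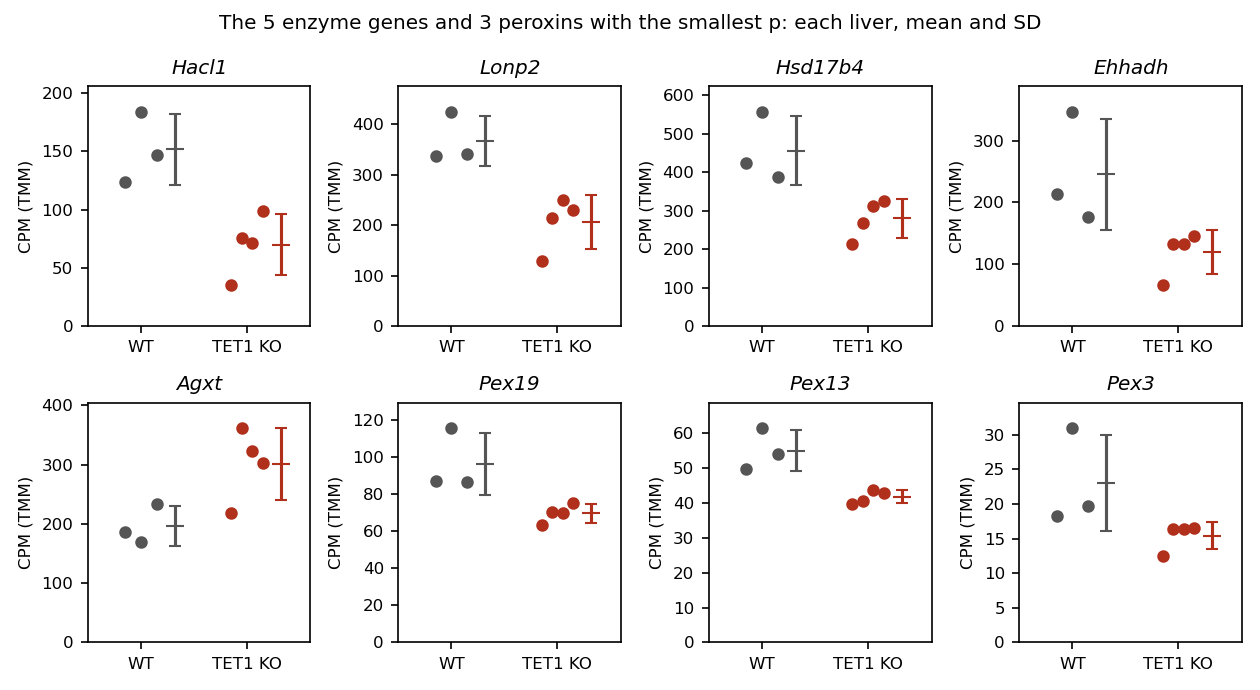
TMM-scaled CPM (y axis, from 0) of the 5 enzyme genes and 3 peroxins with the smallest p in each of 3 WT and 4 TET1 KO livers, with 1 point per liver and bars for the mean and SD beside the points. The genotypes do not overlap in 7 of the panels, and in Agxt the lowest TET1 KO liver, at 218 CPM, lies below the highest WT liver, at 233 CPM. The panels were picked by p in these same data, so little overlap follows from the choice. Over all members, 32.4% were lower without overlap (10.8% of all tested genes) and 2.70% higher (11.7%).

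Genes of glyoxylate handling had ratios on opposite sides of 1. Agxt, the aminotransferase that turns glyoxylate into glycine (ENSMUSG00000026272, chr1:93135240-93145421), stood at 187, 169 and 233 CPM in WT livers and at 218, 362, 324 and 303 CPM in TET1 KO livers. TET1 KO replicate 1 lay within the WT range, and the other TET1 KO livers lay above it. The log2 fold change was 0.62 (adjusted p = 0.0893, standard error 0.19), and without TET1 KO replicate 1 it was 0.75 with an adjusted p of 0.0474. Over the alternatives the adjusted p of Agxt ranged from 0.0341 to 0.344, highest without WT replicate 2. Hao1, the glycolate oxidase that makes glyoxylate, had a log2 fold change of -0.28 (adjusted p = 0.285), with overlapping genotypes.

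Cat, the catalase that breaks down hydrogen peroxide (ENSMUSG00000027187, chr2:103453904-103485153), was the second most abundant member in CPM. It stood at 2362, 2637 and 2070 in WT livers and at 1515, 2091, 2197 and 2158 in TET1 KO livers, and the groups overlapped. Its log2 fold change was -0.24 (95% interval -0.72 to 0.23, adjusted p = 0.484), so that TET1 KO replicate 1 alone lay below the lowest WT liver.

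Nudix hydrolases, which cleave coenzyme A and NADH, did not share a direction. Nudt12, which acts on NADH (ENSMUSG00000024228, chr17:59000107-59013367), stood at 65.2, 79.2 and 60.6 CPM in WT livers and at 48.4, 48.9, 57.7 and 51.3 CPM in TET1 KO livers. The genotypes did not overlap, and the log2 fold change was -0.41 (adjusted p = 0.101, standard error 0.13). Nudt7 had a log2 fold change of 0.33 (adjusted p = 0.373), with WT livers that ranged from 246 to 513 CPM, and Nudt19 one of -0.04. Both are coenzyme A hydrolases. The value of Nudt7 was 0.12 without WT replicate 1 and 0.68 without WT replicate 3.

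Ether lipid synthesis starts with Gnpat, Agps and Far1, which make the acyl and alkyl bonds and the fatty alcohol. Agps was lower without overlap, from 9.20 to 11.0 CPM in WT livers and from 7.26 to 9.02 CPM in TET1 KO livers (log2 fold change -0.37, adjusted p = 0.161). Gnpat had a log2 fold change of -0.36 (adjusted p = 0.217) and Far1, the least abundant enzyme of the list, one of 0.20 (adjusted p = 0.616). The value of Far1 was 0.078 without WT replicate 1 and 0.43 without WT replicate 3. The membrane proteins Pxmp2, a channel for small solutes, and Pxmp4 had log2 fold changes of 0.20 and 0.16. Without TET1 KO replicate 1 these were 0.38 and 0.064. In Pxmp4 all TET1 KO livers, at 89.6 to 118 CPM, lay above all WT livers, at 86.8 to 88.0 CPM, and the adjusted p was 0.443.

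**Figure D3:**
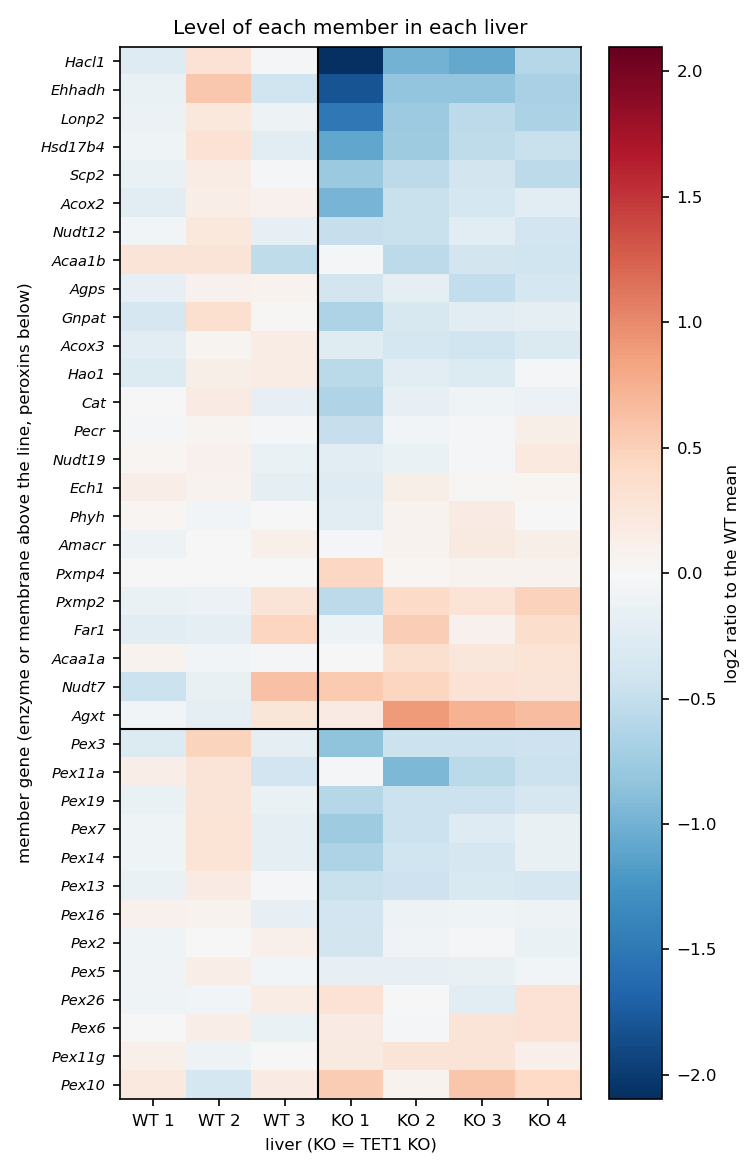
Log2 ratio of each of the 37 members (rows) to its WT mean in each of the 7 livers (columns), with blue for lower and red for higher, enzyme and membrane genes above the line and peroxins below it. TET1 KO replicate 1 has the lowest value in 22 of the 37 rows and WT replicate 2 the highest in 17.

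Peroxins of membrane biogenesis had a median log2 fold change of -0.47, and all 3 were below 0. Pex19, the cytosolic receptor for membrane proteins (ENSMUSG00000003464, chr1:172126755-172136497), stood at 86.8, 115 and 86.5 CPM in WT livers and at 63.1, 69.9, 69.8 and 75.1 CPM in TET1 KO livers. The genotypes did not overlap, and the log2 fold change was -0.47 (adjusted p = 0.0839, standard error 0.14). Pex3, its docking partner on the membrane (ENSMUSG00000019809, chr10:13523842-13553142), stood at 18.3, 30.9 and 19.6 CPM in WT livers and at 12.5, 16.3, 16.4 and 16.5 CPM in TET1 KO livers. The genotypes again did not overlap, although WT replicate 2 stood well above the other WT livers, and the log2 fold change was -0.57 (adjusted p = 0.108, standard error 0.20). Without WT replicate 2, the log2 fold change of Pex3 was -0.31 (adjusted p = 0.429). Pex16, which takes part in the same insertion, had one of -0.17 (adjusted p = 0.418). Pex3 and Pex7 lie on chromosome 10 with Tet1, at 49.3 and 42.9 Mb from it.

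Matrix import was covered by 8 peroxins, with a median log2 fold change of -0.15 and 5 below 0. Pex13, part of the docking complex (ENSMUSG00000020283, chr11:23646843-23665883), stood at 49.6, 61.4 and 54.0 CPM in WT livers and at 39.7, 40.6, 43.8 and 42.9 CPM in TET1 KO livers. The genotypes did not overlap, and the log2 fold change was -0.40 (adjusted p = 0.0897, standard error 0.12). Pex14, its partner in docking (ENSMUSG00000028975, chr4:148960535-149099843), stood at 37.3, 48.4 and 34.5 CPM in WT livers and at 25.2, 29.7, 30.9 and 35.5 CPM in TET1 KO livers. Here TET1 KO replicate 4 lay above WT replicate 3, and the log2 fold change was -0.40 (adjusted p = 0.148, standard error 0.16). It was -0.25 without WT replicate 2 (adjusted p = 0.493).

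Both receptors had a log2 fold change below 0 with overlapping 95% intervals, and the difference between them was not tested. Pex5, the receptor of most matrix enzymes (ENSMUSG00000005069, chr6:124396816-124415944), stood at 102, 118 and 103 CPM in WT livers and at 95.1, 95.03, 96.2 and 104 CPM in TET1 KO livers, for a log2 fold change of -0.14 (95% interval -0.40 to 0.12, adjusted p = 0.450). Pex7, the receptor of a smaller set that includes thiolase, Phyh and Agps, had a log2 fold change of -0.40 (adjusted p = 0.167), and one of -0.25 without WT replicate 2. Both overlapped between the genotypes. Of the genes that recycle the receptor, the ubiquitin ligases Pex2 and Pex10 had log2 fold changes of -0.15 and 0.39, the ATPase Pex6 one of 0.19 and its membrane anchor Pex26 one of 0.11, with adjusted p-values between 0.233 and 0.668.

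Growth and division were covered by Pex11a and Pex11g. Pex11a, which rodent liver raises under PPARA agonists (ENSMUSG00000030545, chr7:79735957-79743131), stood at 122, 133 and 83.8 CPM in WT livers and at 107, 57.6, 74.8 and 81.6 CPM in TET1 KO livers. TET1 KO replicate 1, the lowest liver for most members, was the highest TET1 KO liver here, and the groups overlapped (log2 fold change -0.49, standard error 0.21, adjusted p = 0.175). Pex11g had a log2 fold change of 0.21 (adjusted p = 0.279).

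Across livers, both classes kept a similar distance from the WT mean except in 1 mouse. The mean log2 ratio of the enzyme and membrane genes was -0.10, 0.10 and 0.01 in WT livers and -0.50, -0.16, -0.16 and -0.10 in TET1 KO livers. For peroxins it was -0.04, 0.12 and -0.08 in WT livers and -0.24, -0.24, -0.14 and -0.08 in TET1 KO livers. TET1 KO replicate 4 lay beside the lowest WT liver in both classes. The enzyme mean minus the peroxin mean was -0.07, -0.02 and 0.09 in WT livers and -0.26, 0.08, -0.02 and -0.02 in TET1 KO livers, so that only TET1 KO replicate 1 lay outside the WT range.

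TET1 KO replicate 1 had the lowest value in 15 of the 24 enzyme and membrane genes and in 7 of the 13 peroxins. Without it, the median log2 fold change was -0.16 in the enzyme and membrane genes and -0.13 in the peroxins. A list of 17 mitochondrial beta-oxidation genes was also lowest in that mouse, with mean log2 ratios of -0.62, -0.25, -0.26 and -0.08 in TET1 KO livers. That list had a median log2 fold change of -0.28 with 13 genes below 0 and 0 called by edgeR (6 with an unadjusted p under 0.05, or 35.3% against 26.3% of all genes, and 3 called by DESeq2, or 17.6% against 9.14%). Ratios below 1 were found in 76.5% of that list, 67.6% of the peroxisomal members and 48.9% of all tested genes.

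**Figure D4:**
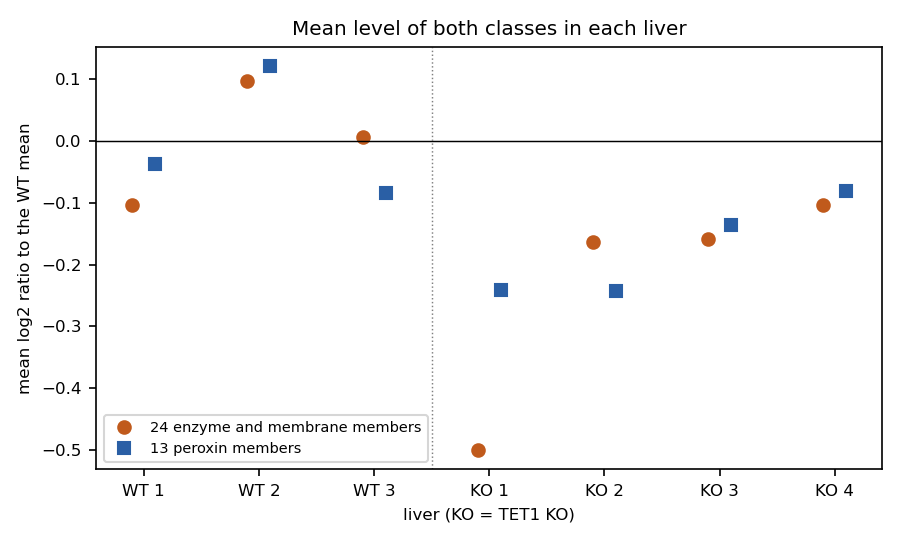
Mean log2 ratio to the WT mean (y axis) over the 24 enzyme and membrane genes (circles) and the 13 peroxins (squares) in each of the 7 livers (x axis). Both symbols lie close together except in TET1 KO replicate 1, at -0.50 for enzymes and -0.24 for peroxins.

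Levels were compared between genes per length. On the scale of CPM per kb of exon, the WT level had a median of 82.6 in the enzyme and membrane genes and 16.7 in the peroxins. Cat (902), Scp2 (889), Acaa1b (863) and Phyh (755) stood apart, followed by Ech1 at 149 CPM per kb, and Far1 was lowest at 0.428. Peroxins lay between 1.83 for Pex10 and 47.8 for Pex11a. The 4 leading genes made up 69.1% to 73.4% of the summed CPM of the enzyme and membrane genes in WT livers and 68.1% to 71.3% in TET1 KO livers. That sum was 11741, 13110 and 11113 CPM in WT livers and 8629, 10004, 10564 and 10141 CPM in TET1 KO livers, without overlap. The summed CPM of the peroxins was 748, 859 and 698.6 in WT livers and 643, 627, 672 and 697.9 in TET1 KO livers, also without overlap, although the nearest livers differed by less than 1 CPM.

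**Figure D5:**
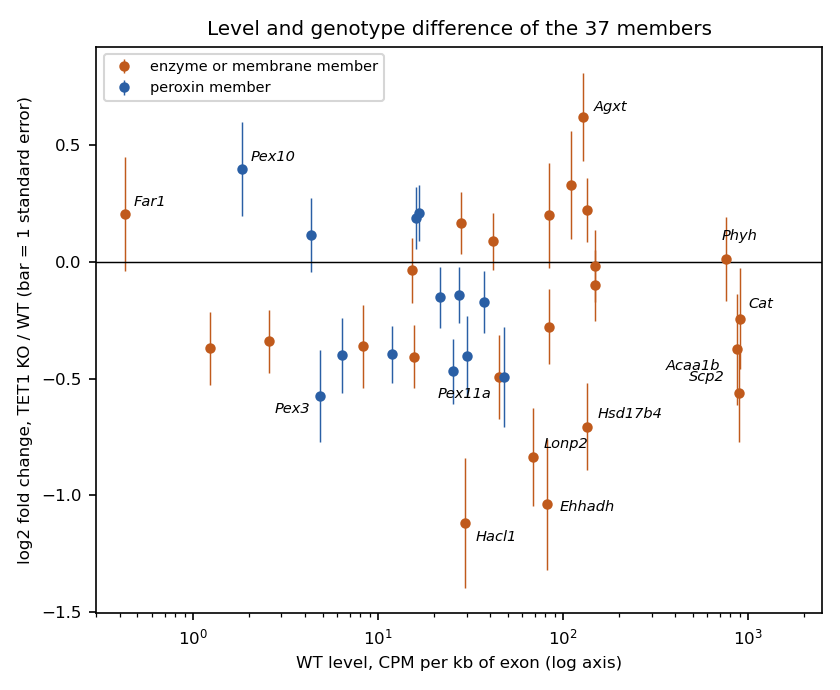
WT level in CPM per kb of exon (x axis, log scale) against the log2 fold change of TET1 KO over WT (y axis), with 1 point per member and bars of 1 standard error. Peroxins lie between 1.83 and 47.8 CPM per kb, while Cat, Scp2, Acaa1b and Phyh lie between 755 and 902 CPM per kb with log2 fold changes from -0.56 to 0.01.

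Peroxisomal genes outside the list gave no call either. Of 54 further genes (enzymes, transporters, peroxins and division factors), 48 were tested, 0 were called by edgeR, 17 had an unadjusted p under 0.05 (35.4%, against 26.3% of all genes) and 7 were called by DESeq2 (14.6%, against 9.14%). Their median log2 fold change was -0.13, with 31 below 0 (64.6%, against 48.9%). Ppara stood at 40.0, 66.7 and 38.7 CPM in WT livers and at 63.2, 42.8, 40.0 and 36.6 CPM in TET1 KO livers, for a log2 fold change of -0.09 (adjusted p = 0.830). Of the 6 listed regulators of these genes, edgeR called 1, Pparg, against 2.02% of all tested genes, and DESeq2 called 2, Pparg lower and Ppargc1b higher, against 9.14%. Both were named after their values were seen. Ppargc1b had a log2 fold change of 0.93 (adjusted p = 0.0973 by edgeR and 0.0470 by DESeq2), with overlapping genotypes. Pparg stood at 17.1, 15.4 and 8.11 CPM in WT livers and at 2.44, 6.06, 4.35 and 4.69 CPM in TET1 KO livers, without overlap, and fell by 1.63 on the log2 scale (adjusted p = 0.0265). This call was lost without WT replicate 1, WT replicate 2 or TET1 KO replicate 3, and held in 11 of 14 alternatives, with the highest adjusted p, 0.149, without WT replicate 2.

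Markers of hepatocytes, the cells that hold most liver peroxisomes, overlapped in their sum (70707 to 91186 CPM in WT livers, 83886 to 93805 CPM in TET1 KO livers), and 0 of 8 were called. Cholangiocyte markers had 5 of 6 tested and 0 called. Their sum did not overlap, at 29.7 to 37.9 CPM in WT livers and 46.2 to 68.0 CPM in TET1 KO livers. Of the 5, 3 were higher without overlap, as were 11.7% of all tested genes. Endothelial markers summed to 142.5 to 145.2 CPM in WT livers and 117.6 to 141.4 CPM in TET1 KO livers, also without overlap. The sums of the other 6 marker lists overlapped, and no marker of any list was at 0 in every liver. The part of these cells in the values of the peroxisomal genes was not tested.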

How the data were processed

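The authors deposited 1 table of raw counts per gene for each of 7 livers, not normalized. The submitters' processing notes name Trimmomatic 0.36, GSNAP, featureCounts 1.5.3 and GRCm38. Libraries were stranded, and the labels give poly(A) selection and rRNA removal as alternatives without saying which was used. The strand and multi-mapping settings of the counting are not given in the sources used here. Tables of 51431 entries were joined by Ensembl identifier, and 5 repeated entries were dropped. Counts were filtered (filterByExpr), scaled by TMM (factors 0.947 to 1.061) and tested over all genes with edgeR 4.0.16 in R 4.3.3, by genotype without covariates, with Benjamini-Hochberg adjustment over all tested genes. DESeq2 1.42.0 was the alternative test. The scripts were tested on simulated data.

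Coordinates and promoters are those of RefSeq GRCm38.p6. Exon lengths and shared exons come from GENCODE M1, an older build. The members and lists were chosen with earlier results of these data known. Every member is named with its log2 fold change. Values in every liver are given for members with an adjusted p under 0.05, the 6 enzyme or membrane genes and the 4 peroxins with the smallest p, the 2 of each class with the highest CPM, and Acaa1a and Acaa1b. Outside the members the rule named Ppara and called genes of the other peroxisomal lists, and 1 further gene that is not reported here. The further livers and ranges, such as those of Acox2, Acox3, Agps and Pxmp4, were given after their values were seen. Alternatives were other scalings, filters and dispersions, a replicate block, and leaving out each mouse in turn.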

Additional observations from a re-analysis of the deposited data

Results flagged for a closer look

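Within the 4 TET1 KO livers, 1 liver lay far from the others for 6 of the 39 groups of values examined, where the gap to the nearest liver over the whole range passed Dixon's 95% critical value. Chance alone flags about 1 in 20 groups. TET1 KO replicate 1 was the far liver for Cat (gap over range 0.845, at 1515 CPM), Pxmp4 (0.903, at 118 CPM), Pex3 (0.957, at 12.5 CPM), Pex16 (0.929, at 49.4 CPM) and the mean log2 ratio of the enzyme and membrane genes (0.849). It was the lowest liver in each case except Pxmp4, in which it was the highest. TET1 KO replicate 4 was the far liver for Pex5 (0.864, at 104 CPM). The groups of 3 WT livers were not examined in this way.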

How the results depend on the processing

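No member was called with RLE size factors, at least 10 counts in every library or robust dispersions. DESeq2 called 7 members lower and 1 higher (21.6% of members, against 9.14% of its tested genes). Of these, 6 were enzyme or membrane genes and 2 were peroxins. DESeq2 also called 7 of the other peroxisomal genes. Scaling by library size only called 2 members lower, both enzymes, 1 other peroxisomal gene and 419 of 14754 tested genes. It gave a peroxin median log2 fold change of -0.27. Without a filter on low counts, 3 members, all enzymes, were called lower, with 3 other peroxisomal genes and 592 of 24623 tested genes called. The replicate numbers do not pair the mice, with correlations of the deviations of same-numbered livers of 0.209, -0.123 and -0.0964. With the replicate block, 5 of the 37 members, all enzyme genes, were called lower. In that fit 6 other peroxisomal genes and 1326 of 14754 tested genes were called. Leaving out each mouse gave 0 to 3 members called lower, 0 to 1 higher, 0 to 3 enzyme or membrane genes, 0 peroxins and 0 to 4 other genes. The members called were Hacl1 and Agxt without TET1 KO replicate 1, where 187 of 14639 tested genes were called. They were Ehhadh, Hacl1 and Hsd17b4 without TET1 KO replicate 4, where 891 of 14420 were called. Medians ranged over these from -0.32 to -0.16 in enzyme and membrane genes and from -0.27 to -0.13 in peroxins. The causes were not tested. Counts over all genes were 298 in the main fit, 1332 by DESeq2, 592 without a filter, 1326 with the replicate block and 38 to 891 without single mice. Alternatives chosen after seeing the data gave 12 to 18 members lower without overlap when each mouse was left out, where 12.7% to 20.2% of all genes were, and 1 to 4 members higher without overlap, where 13.4% to 20.5% of all genes were. Leaving out 1 mouse also moved the log2 fold change of Acaa1b to -0.62 (without WT replicate 3), Cat to -0.13 (without TET1 KO replicate 1), Gnpat to -0.19, Pex5 to -0.077 and Pex10 to 0.22 (each without WT replicate 2).

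Only members near 0 changed sign. Phyh had log2 fold changes of -0.011 by DESeq2, -0.0012 with RLE, -0.083 by library size only and -0.014 without a filter, and Amacr had -0.0066 by library size only. When each mouse was left out, Phyh ranged from -0.058 to 0.084, Ech1 from -0.14 to 0.060, Pecr from -0.18 to 0.0056 and Nudt19 from -0.13 to 0.022.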
